A study of Mus musculus with 4 samples.

Results

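Glycolysis from the splitting of fructose bisphosphate down to pyruvate was described through 10 mouse genes that encode its enzymes and their isoforms: Aldoa, Aldoc, Tpi1, Gapdh, Pgk1, Pgam1, Eno1, Eno2, Eno3 and Pkm. They were chosen by gene symbol, with earlier results of these data known. They took up 11 of the 55487 gene rows of the deposited table, because Aldoa has a second, minor row, and all 11 rows passed the filter on low counts. RNA was sequenced from tumours that formed in the first day after osteosarcoma cells were placed in mice. The knockout group held 3 libraries from AXT cells of genotype HIF-1alpha KO, which the table calls c11, c15 and c22. The labels list the knockout lines as KO1-1, KO1-2 and KO2, and the sources used here do not say which line each column holds. The control was 1 library of Mock AXT cells, labelled WT. AXT is a mouse osteosarcoma line made by overexpressing c-MYC in stromal cells of the bone marrow, and mock and knockout cells share that origin. Cells of both groups were embedded in matrigel and injected into C57BL/6scid mice, immunodeficient animals of unstated age, and tumours were taken on day 1.

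In lower glycolysis, aldolase splits fructose bisphosphate into triose phosphates, triose phosphate isomerase interconverts them, and glyceraldehyde-3-phosphate dehydrogenase, phosphoglycerate kinase, phosphoglycerate mutase, enolase and pyruvate kinase carry the carbon on to pyruvate, with ATP made by phosphoglycerate kinase and pyruvate kinase. Several of these genes are textbook targets of HIF-1, the oxygen-regulated transcription factor whose alpha subunit is encoded by Hif1a, and cells with little oxygen or with high MYC activity use them at high levels. HIF-1 binds a short core, ACGTG or GCGTG, in hypoxia response elements of its target genes.

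Promoter sequences are shown first because HIF-1 sites near the start of Pgk1 and Aldoa are textbook examples and because most of the members stood below mock together. RefSeq promoter windows of build GRCm38.p6 run from 250 bases before to 50 bases after an annotated start, and all 10 genes matched, with 16 windows in all because some genes have several starts. The motif ACGTG was searched on both strands (CACGT on the opposite strand, with CACGTG counted on each strand), and the capitals below mark its matches. Printed 5′ to 3′ on the gene's own strand are Pgk1 (chrX:106186850-106187149, plus strand), Aldoa (chr7:126799205-126799504, minus strand), Pkm (chr9:59656977-59657276, plus strand) and, as a member with no ACGTG, Eno1 (chr4:150236947-150237246, plus strand). That Eno1 window holds 2 matches of GCGTG, which are not in capitals.
Pgk1: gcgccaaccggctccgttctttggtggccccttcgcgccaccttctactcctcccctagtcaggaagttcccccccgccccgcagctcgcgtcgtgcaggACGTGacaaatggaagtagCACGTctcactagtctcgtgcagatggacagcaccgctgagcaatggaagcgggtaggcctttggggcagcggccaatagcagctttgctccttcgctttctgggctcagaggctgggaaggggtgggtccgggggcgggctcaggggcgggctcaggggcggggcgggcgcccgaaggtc
Aldoa: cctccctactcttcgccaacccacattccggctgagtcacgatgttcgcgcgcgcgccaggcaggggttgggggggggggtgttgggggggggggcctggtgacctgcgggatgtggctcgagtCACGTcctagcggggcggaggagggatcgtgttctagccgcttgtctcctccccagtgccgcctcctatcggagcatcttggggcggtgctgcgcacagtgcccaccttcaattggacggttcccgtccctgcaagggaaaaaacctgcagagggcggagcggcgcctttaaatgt
Pkm: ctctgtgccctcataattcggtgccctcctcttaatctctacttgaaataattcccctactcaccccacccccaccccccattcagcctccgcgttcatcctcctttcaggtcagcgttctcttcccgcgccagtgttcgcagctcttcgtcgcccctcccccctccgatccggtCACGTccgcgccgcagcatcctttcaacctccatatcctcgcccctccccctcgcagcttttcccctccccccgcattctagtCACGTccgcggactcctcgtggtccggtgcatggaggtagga
Eno1: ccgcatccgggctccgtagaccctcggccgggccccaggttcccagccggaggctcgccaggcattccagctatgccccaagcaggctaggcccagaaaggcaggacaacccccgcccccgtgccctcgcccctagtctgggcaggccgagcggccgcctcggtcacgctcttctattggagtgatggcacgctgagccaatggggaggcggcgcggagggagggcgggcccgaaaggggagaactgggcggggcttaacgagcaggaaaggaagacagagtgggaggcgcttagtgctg
The Pgk1 window held 2 matches, which begin at positions -150 and -131 counted from the start at 1, on opposite strands. The Pkm window held 2, at -75 and 9, and the Aldoa window 1, at -126. ACGTG was found in at least 1 window of 6 of the 10 genes, the others being Aldoc, Gapdh and Pgam1, and in no window of Tpi1, Eno1, Eno2 or Eno3, beside 21.8% of all 27025 genes with a window. By window it was in 7 of 16 (43.8%), beside 19.6% of all 32851 promoter windows of the same length and 26.5% of the 9690 windows with at least 60% G and C. Of those 7 windows, 2 are overlapping Aldoa windows that hold the same site. With GCGTG counted too, 12 of 16 windows (75%) held a match, beside 43.8% of all windows and 69.2% of the windows rich in G and C. Fitted log2 fold changes, knockout minus mock, of the genes without ACGTG were -1.72 (Tpi1), -0.93 (Eno1), 0.80 (Eno2) and 0.19 (Eno3). Those of the 6 genes with it ran from -1.98 (Pgk1) to -0.95 (Aldoc). The window of Tpi1 held no GCGTG either. A match is a description of these letters only, and the part of these sites in the members' levels was not tested.

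Libraries held 12910058, 13193264 and 13081007 counts in c11, c15 and c22 and 12383719 in mock, so a count of 0 allowed up to 0.232, 0.227 and 0.229 CPM (counts scaled to a common library total, per 1000000) in the knockout libraries and 0.242 CPM in mock, for counting error only. Hif1a itself had 104, 98.7 and 22.3 CPM in c11, c15 and c22, against 107 CPM in mock, and a count over all exons does not check the deletion. Bnip3, a mitophagy receptor gene and HIF-1 target, averaged 33.9 ± 4.87 CPM in knockout tumours (SD, n = 3), against 469 CPM in mock. The osteoblast lineage markers of the tumour line summed to 2356, 1954 and 5248 CPM in c11, c15 and c22, against 1742 CPM in mock, and all 7 passed the filter. Most of that sum was Col1a1 (1913, 1093 and 4700 CPM, against 862 CPM), and without it, singled out after its values were seen, the markers summed to 443, 861 and 548 CPM, against 880 CPM. Of the 7 markers, 4 were below mock in all 3 knockout libraries, where 22.5% of all tested genes were. Another 1 was above mock in all 3, and the share of all tested genes on that side is not reported here. Their median log2 fold change was -0.73, and their part in the members' levels was not tested. Mock was not replicated, and with 3 against 1 an exact permutation test cannot go below p = 0.25 on one side or 0.5 on both sides. The tests below are edgeR's quasi-likelihood test over 15706 genes, in which mock is assumed to vary as the knockout libraries do, and log2 fold changes are knockout minus mock, each with the SE of its fit.

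The members together held less of the RNA in knockout tumours. They summed to 3664, 6457 and 4618 CPM in c11, c15 and c22, against 12963 CPM in mock, or 0.366%, 0.646% and 0.462% of all counts against 1.30%. Of the 10 genes, 7 were below mock in all 3 knockout libraries (Aldoa, Tpi1, Gapdh, Pgk1, Pgam1, Eno1 and Pkm). Of all tested genes, 22.5% were. Eno2 was above mock in all 3, and the share of all tested genes on that side is not reported here. None of the members passed an adjusted p of 0.05 in edgeR, which called 0.00637% of all genes as lower (1 gene) and 0 as higher. At an unadjusted p under 0.05 in edgeR, 6 members were lower (Aldoa, Tpi1, Gapdh, Pgk1, Pgam1 and Pkm) and 0 higher. Of the 15706 tested genes, 402 (2.56%) were lower at that p and 176 higher. DESeq2 on the same counts called 4 members as lower at an adjusted p of 0.05 (Aldoa, Tpi1, Gapdh and Pgk1), beside 0.42% of all genes. The median log2 fold change of the members was -1.40, against 0.05 over all tested genes. In bulk tumours, less RNA per cell and fewer cells of a type that expresses these genes cannot be told apart.

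**Figure D1:**
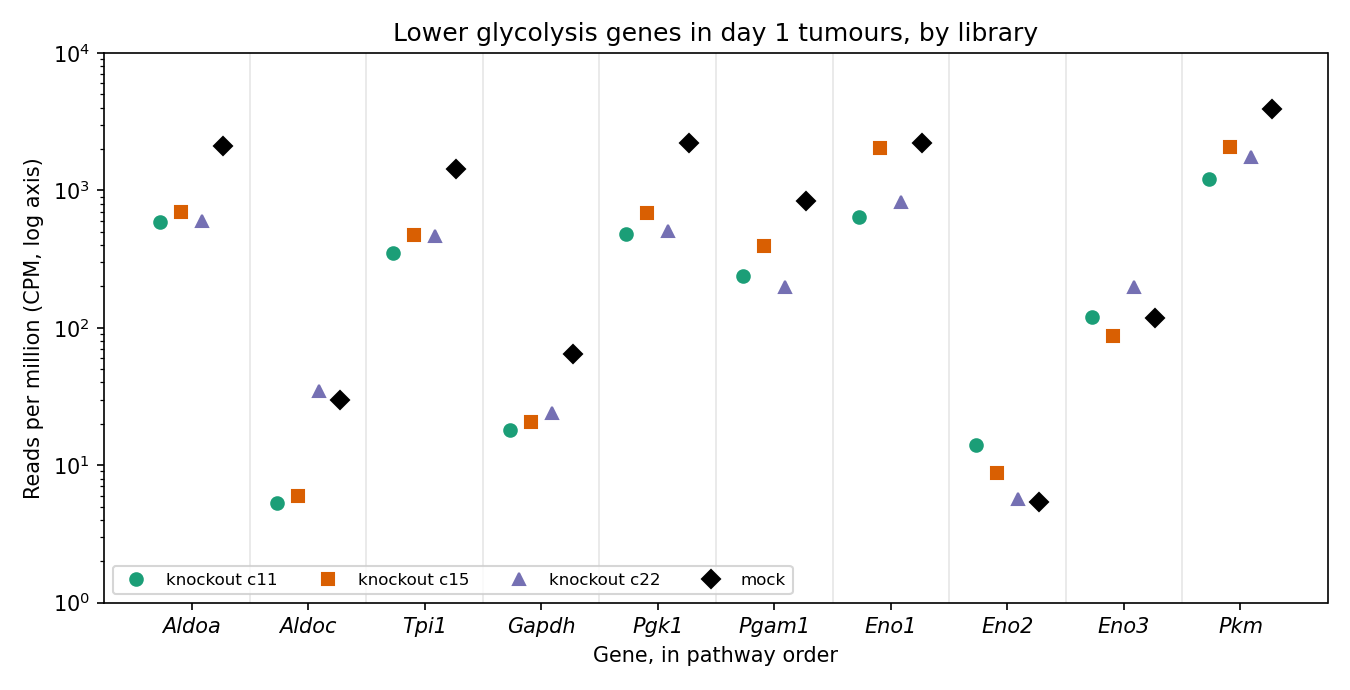
CPM of each member on a log axis, with knockout libraries c11 (circles), c15 (squares) and c22 (triangles) left of mock (diamonds), genes in pathway order. Mock lies above all knockout libraries for Aldoa, Tpi1, Gapdh, Pgk1, Pgam1, Eno1 and Pkm; Eno1 in c15, at 2023 CPM, is close to the 2229 CPM of mock.

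Markers of muscle, macrophages and erythroid cells, which a host can contribute, stood below mock too. Skeletal muscle markers summed to 8.68, 2.58 and 36.9 CPM in c11, c15 and c22, against 153 CPM in mock, with 12 of the 13 tested below mock in all 3 and Myh2 at 0 in every knockout library. Of all tested genes, 22.5% were below mock in all 3. Macrophage markers summed to 245, 338 and 434 CPM in the knockout libraries, against 808 CPM in mock (8 of 9 below mock in all 3), and erythroid markers to 1.63, 4.24 and 41.1 CPM, against 116 CPM (5 of 5 tested, with Slc4a1 at 0 in the knockout libraries). The part of these cells in the members' levels was not tested. The other lists were small: neutrophil markers summed to 5.89, 17.7 and 20.1 CPM in the knockout libraries and 15.3 CPM in mock, and endothelial markers to 1.16, 2.35 and 1.38 CPM against 4.20 CPM, with Emcn at 0 in the knockout libraries. Adipocyte markers summed to 0.620, 0.152 and 0.459 CPM against 0.888 CPM with Lep at 0 in every library, neuron and Schwann markers to 13.6, 31.9 and 8.56 CPM against 11.2 CPM with Snap25 at 0 in the knockout libraries, and keratinocyte markers to 3.10, 3.79 and 3.06 CPM against 3.15 CPM with Krt5 and Krt1 at 0 in every library.

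Aldoa encodes the widely expressed aldolase, which is also the aldolase of muscle. It had 587, 692 and 602 CPM in c11, c15 and c22, against 2111 CPM in mock. The knockout libraries lay close together, at 27.8% to 32.8% of mock, and did not overlap it. Their mean was 627 ± 56.8 CPM (SD, n = 3), with a log2 fold change of -1.75 (SE 0.25, edgeR adjusted p = 0.248). DESeq2 gave an adjusted p of 0.000102. Aldoa lies at chr7:126795234-126800751 on the minus strand (GRCm38). Fam57b lies on the opposite strand and overlaps Aldoa over 3084 bases. It had 86.2, 106 and 85.0 CPM in the knockout libraries and 316 CPM in mock. The sources used here do not say whether reads were counted by strand, so reads from the overlap cannot be placed. The second Aldoa row (ENSMUSG00000114515, chr7:126800790-126809108) carried 3.95, 2.80 and 2.29 CPM in the knockout libraries and 5.49 CPM in mock (log2 fold change -0.86, SE 0.57, edgeR adjusted p = 1.00).

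Aldoc, the brain-type aldolase (chr11:78322968-78327781), split the knockout libraries. It had 5.27, 5.99 and 34.5 CPM in c11, c15 and c22, against 29.7 CPM in mock. c11 and c15 lay at 17.7% and 20.2% of mock and c22 slightly above it, so the groups overlapped. Over all 3 the fitted difference was -0.95 on the log2 scale with an SE of 1.05 (edgeR adjusted p = 1.00). Without c22 it was -2.40 with an SE of 0.44 (edgeR adjusted p = 0.775), and Aldoc was then among the members with an unadjusted p under 0.05. Without c11 it was -0.53 and without c15 -0.56. By reads per kb of exon, Aldoc made up 0.794%, 0.766% and 4.86% of the aldolase total in c11, c15 and c22 and 1.24% in mock, so Aldoa was nearly all of it in every library. The testis relatives Aldoart1 and Aldoart2 had 0 counts in all 4 libraries.

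Tpi1 encodes triose phosphate isomerase, a single gene with no isoform partner (chr6:124810586-124814296, minus strand). It had 348, 477 and 467 CPM in c11, c15 and c22, against 1428 CPM in mock. All knockout libraries were at 24.3% to 33.4% of mock. Their mean was 431 ± 71.9 CPM (SD, n = 3). The log2 fold change was -1.72 (SE 0.29), with an adjusted p of 0.314 in edgeR and of 0.00214 in DESeq2.

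Gapdh, the gene of glyceraldehyde-3-phosphate dehydrogenase and a common reference gene in expression assays, had a row with few counts. It had 18.0, 20.6 and 24.2 CPM in c11, c15 and c22, against 64.7 CPM in mock. The knockout libraries stood at 27.9% to 37.3% of mock and did not overlap it. The knockout mean was 20.9 ± 3.07 CPM (SD, n = 3) and the log2 fold change -1.62 (SE 0.34, edgeR adjusted p = 0.418, DESeq2 adjusted p = 0.0431). Per length, as CPM per kb of exon (RPKM), the Gapdh row was at 5.07 in knockout tumours and 15.7 in mock, far under its neighbour in the pathway, Pgk1, at 248 RPKM in knockout tumours and 984 RPKM in mock.

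Most reads on Gapdh and its copies were counted on the copies. In GENCODE M21 for GRCm38, 58.4% of the 50-base windows of Gapdh's protein-coding transcripts (chr6:125161715-125166467) also occur in transcripts of other genes. The table held 30 rows of processed copies, genes with over 50% of their own windows in Gapdh, and these rows carried 195, 296 and 295 CPM in c11, c15 and c22, against 655 CPM in mock. They held 91.5%, 93.5% and 92.4% of the reads on Gapdh and its copies in the knockout libraries and 91.0% in mock. The largest copy row, the processed pseudogene Gm5559, had 122, 176 and 190 CPM in the knockout libraries and 435 CPM in mock. The next, Gm7336, had 56.8, 97.8 and 84.1 CPM against 182 CPM. Gapdh and its copies together came to 213, 316 and 319 CPM in the knockout libraries, against 720 CPM in mock. That sum also stood below mock in all 3 (log2 fold change -1.34, SE 0.33, edgeR adjusted p = 0.589). The sources used here do not say how reads with several possible origins were assigned, so the level of the Gapdh row is uncertain. The testis isoform Gapdhs had 2.35 ± 0.0663 CPM in knockout tumours (SD, n = 3) and 2.58 CPM in mock.

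**Figure D2:**
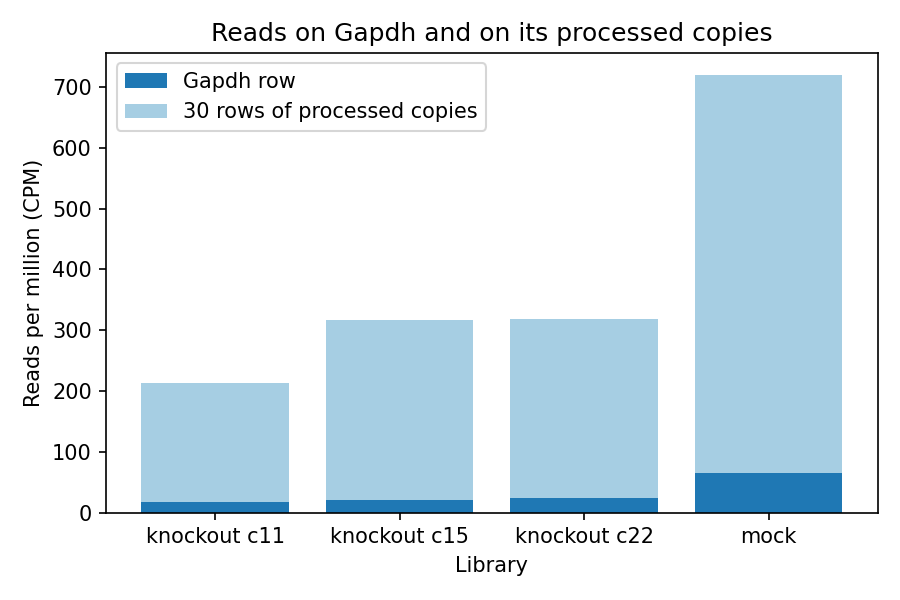
Stacked bars of CPM on the Gapdh row (dark) and on the 30 rows of its processed copies (light), 1 bar per library, knockout libraries left of mock. The copies hold 91.5%, 93.5% and 92.4% of the reads in c11, c15 and c22 and 91.0% in mock, and the mock bar, at 720 CPM, is the tallest.

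Pgk1, on the X chromosome (chrX:106187100-106203699), encodes phosphoglycerate kinase. It had the lowest fitted log2 fold change of the 10 genes. It had 482, 681 and 505 CPM in c11, c15 and c22, against 2207 CPM in mock. All 3 were at 21.8% to 30.8% of mock. Their mean was 556 ± 109 CPM (SD, n = 3), a log2 fold change of -1.98 (SE 0.29, edgeR adjusted p = 0.25). DESeq2 gave an adjusted p of 0.00016. Its windows also occur in other genes (68.0% of them), but its 3 copy rows held at most 0.422% of the summed reads in any library, so few reads were counted there. The testis isoform Pgk2 had 0 counts in all 4 libraries.

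Pgam1, the broadly expressed phosphoglycerate mutase (chr19:41911923-41918660), had 237, 394 and 198 CPM in c11, c15 and c22, against 832 CPM in mock. c15 was highest of the knockout libraries, at 47.3% of mock, and the others were at 28.5% and 23.8%. The mean of 276 ± 104 CPM (SD, n = 3) gave a log2 fold change of -1.59 (SE 0.41, edgeR adjusted p = 0.656, DESeq2 adjusted p = 0.135). Pgam2, the mutase of muscle, had 3.18, 0.910 and 7.87 CPM in the knockout libraries and 3.88 CPM in mock, so the groups overlapped. Bpgm, which makes bisphosphoglycerate in red cells, had 17.1 ± 1.51 CPM in knockout tumours (SD, n = 3) and 19.5 CPM in mock.

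The 3 enolase genes stood at different places relative to mock. Eno1, the ubiquitous alpha enolase (chr4:150236721-150248879), had 642, 2023 and 825 CPM in c11, c15 and c22, against 2229 CPM in mock. c11 and c22 were at 28.8% and 37.0% of mock, close to the other members, while c15 was at 90.8%. Over all 3 the fitted difference was -0.93 on the log2 scale with an SE of 0.63 (edgeR adjusted p = 1.00). Without c15 it was -1.60 with an SE of 0.30 (edgeR adjusted p = 0.286), and Eno1 was then among the members with an unadjusted p under 0.05. Without c11 the fitted difference was -0.63 and without c22 -0.74. Eno1 shares 49.5% of its 50-base windows with other genes. Its 2 copy rows held 2.26%, 2.35% and 2.23% of the summed reads in c11, c15 and c22 and 2.18% in mock. The copy Eno1b followed it, with 9.14, 33.2 and 10.5 CPM against 34.9 CPM. Reads per Pgk1 read in the same library, which no scaling touches, were 1.33, 2.97 and 1.63 for Eno1 in c11, c15 and c22 and 1.01 in mock, so c15 stood apart in this ratio too.

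Eno3, the beta enolase of muscle (chr11:70657202-70662513), had 120, 86.9 and 197 CPM in c11, c15 and c22, against 118 CPM in mock. The groups overlapped, with c22 highest and c15 lowest. The fitted difference was 0.19 on the log2 scale (SE 0.51, edgeR adjusted p = 1.00) and -0.21 without c22. Across the knockout libraries the order of Eno3 (c15, c11, c22) was that of the summed muscle markers, at 2.58, 8.68 and 36.9 CPM. It was also that of the summed osteoblast lineage markers, at 1954, 2356 and 5248 CPM, so the order is not particular to muscle. Mock had 153 CPM of the muscle markers and 1742 CPM of the osteoblast lineage markers. The part of either list in the Eno3 level was not tested. Eno2, the gamma enolase of neurons (chr6:124760053-124769673), had 14.0, 8.72 and 5.66 CPM in c11, c15 and c22, against 5.41 CPM in mock. It was above mock in all 3, though in c22 by less than counting error, with a fitted difference of 0.80 on the log2 scale (SE 0.67, edgeR adjusted p = 1.00). Without c11 that difference was 0.43. Eno4 stayed at 0.763 ± 0.549 CPM in knockout tumours (SD, n = 3) and 0.969 CPM in mock.

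Per kb of exon, Eno1 made up 62.5%, 87.9% and 57.2% of the enolase total of the 3 genes in c11, c15 and c22, against 85.7% in mock. Eno3 made up 36.0%, 11.7% and 42.3% in the knockout libraries, against 14.1% in mock, and Eno2 1.56%, 0.433% and 0.449%, against 0.238%. c11 and c22 had a larger share of their enolase RNA from Eno3 than mock, and c15 did not, as in the shares of reads below. In CPM, Eno3 itself was at 101% of mock in c11 and 167% in c22, and Eno1 at 28.8% and 37.0%. The larger share in c11 thus came with a lower Eno1 level and not with a higher Eno3 level. Exon length merges all annotated transcripts, at 5379 bases for Eno1 and 1739 for Eno3, so the size of the per-kb shares depends on that merging. Over the knockout libraries Eno1 averaged 69.2 ± 16.4% and Eno3 30.0 ± 16.2% (SD, n = 3). The mock share lay inside the knockout range for both, and no exact permutation test of 3 against 1 could pass 0.05. As shares of reads, not scaled by length, Eno3 had 15.4% (exact 95% interval 14.7% to 16.1%), 4.10% (3.87% to 4.34%) and 19.2% (18.5% to 19.9%) in c11, c15 and c22 and 5.03% (4.78% to 5.29%) in mock, where the intervals cover counting error only.

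**Figure D3:**
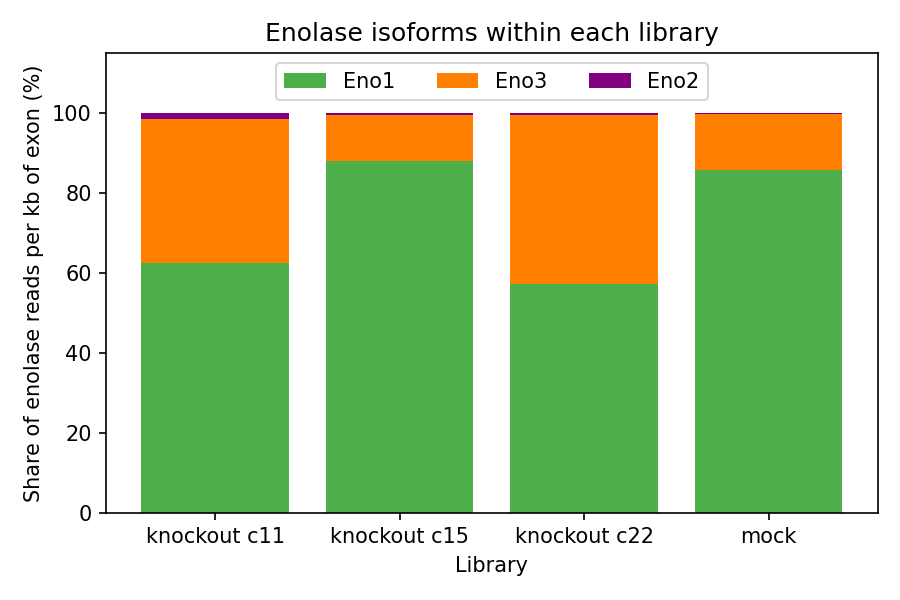
Share of each enolase gene in the summed enolase reads per kb of exon, in percent, 1 bar per library with knockout libraries left of mock. Eno1 is the largest part everywhere, and Eno3 reaches 36.0% in c11 and 42.3% in c22, against 11.7% in c15 and 14.1% in mock.

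Genes around Eno1 were high in c15 as well. Among the 26 tested genes with at least 1 CPM within 1 Mb of Eno1, 24 were above mock in c15, with a median log2 ratio to mock of 0.95 and quartiles of 0.67 and 1.23. In c11 and c22 the same neighbours had medians of 0.21 and 0.01. Of all 11214 neighbourhoods of this kind, 0.829% had a median at least as high in c15. Along chromosome 4, genes from 140 to 150 Mb had a median of 0.82 in c15 (84 genes) and those beyond 150 Mb 1.07 (78 genes), while the highest 10 Mb bin below 140 Mb was at 0.20. In those last bins c11 was at -0.13 and -0.18 and c22 at 0.00 and -0.07. Set against its neighbours, Eno1 was lower by 2.01, 1.09 and 1.44 on the log2 scale in c11, c15 and c22. The part of the region in the Eno1 level of c15 was not tested.

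**Figure D4:**
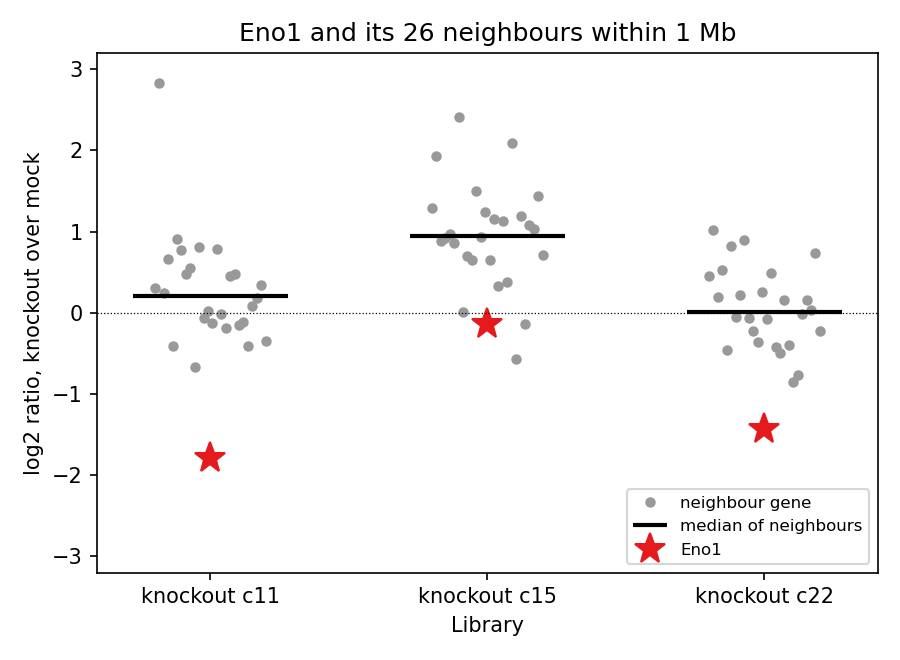
Log2 ratio to mock (CPM with 0.5 added) of Eno1 (star) and of the 26 tested genes within 1 Mb of it (grey points, horizontal spread for display only), for each knockout library, with the neighbours' median as a bar. The medians are 0.21 for c11, 0.95 for c15 and 0.01 for c22, and Eno1 lies below the median in each.

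On chromosome 11, Aldoc and Eno3 also had high neighbours in c15. Around Aldoc all 40 neighbours were above mock in c15 (median 0.71), where Aldoc itself was at a log2 ratio of -2.22. Around Eno3, 36 of 48 were above mock in c15 (median 0.51), and Eno3 itself was at -0.44. Of all 11214 neighbourhoods, 1.70% had a median in c15 at least as high as that around Aldoc and 4.41% as that around Eno3. Over the 1104 genes of chromosome 11 with at least 1 CPM the median in c15 was 0.24. In c11 and c22 the medians around Aldoc were 0.08 and -0.04. Around Aldoa, Tpi1, Gapdh and Pgam1 the neighbours' medians lay between -0.14 and 0.05 in all 3 libraries. Around Pkm they were -0.01, 0.19 and 0.02 in c11, c15 and c22. Around Pgk1, with 9 neighbours, they were 0.09, -0.13 and -0.43, and 2 of the 9 were above mock in c22. Of the 11214 neighbourhoods, each with more genes than that of Pgk1, 3.83% had a median at least as low in c22. Around Tpi1, Gapdh and Eno2, which lie together, 17 of 39 neighbours (members left out) were below mock in all 3 libraries, beside 22.5% of all tested genes. The part of these regions in the members' levels was not tested.

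Pkm encodes the muscle-type pyruvate kinase, spliced into the M1 and M2 forms, which a count per gene does not separate (chr9:59656368-59679375). It had 1211, 2068 and 1758 CPM in c11, c15 and c22, against 3937 CPM in mock. The knockout libraries were at 30.8% to 52.5% of mock and did not overlap it. Their mean of 1679 ± 434 CPM (SD, n = 3) gave a log2 fold change of -1.22 (SE 0.35, edgeR adjusted p = 0.779, DESeq2 adjusted p = 0.348). Gm49759, a row on the same strand that overlaps it over 3887 bases, had 7.98, 29.1 and 12.8 CPM in the knockout libraries and 45.2 CPM in mock. Pklr, the pyruvate kinase of liver and red cells, had at most 2 counts in any library. Of the 5 genes listed as regulators of Pkm splicing, 0 had an edgeR p under 0.05. At that p, 402 of the 15706 tested genes were lower and 176 higher. Among the 5, Ptbp1 had 556 ± 24.5 CPM in knockout tumours (SD, n = 3) and 627 CPM in mock. Hnrnpa1 had 1101 ± 292 CPM in knockout tumours and 1173 CPM in mock.

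Per length, the order of the members differed between the groups. In knockout tumours Pkm was highest at a mean of 336 RPKM, then Pgk1 (248), Eno1 (216), Aldoa (215), Tpi1 (156), Pgam1 (139), Eno3 (77.4), Gapdh (5.07), Aldoc (4.67) and Eno2 (2.01). In mock Pgk1 led with 984 RPKM, then Pkm (787), Aldoa (725), Tpi1 (519), Pgam1 (420), Eno1 (414), Eno3 (68.1), Gapdh (15.7), Aldoc (9.11) and Eno2 (1.15). In the knockout order, Pgk1 and Eno1, Eno1 and Aldoa, Tpi1 and Pgam1, Gapdh and Aldoc, and Aldoc and Eno2 are neighbours whose means differ by less than the larger of their SDs over the 3 libraries, and mock had no replicate to give a spread. The value of Gapdh leaves out the reads on its copies. Pgk1 and Eno1 share windows with other genes as given above, and so do Pgam1 (41.5% of its 50-base windows) and Pkm (23.7%). Exon length also merges all annotated transcripts of a gene, so the order between genes is uncertain.

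**Figure D5:**
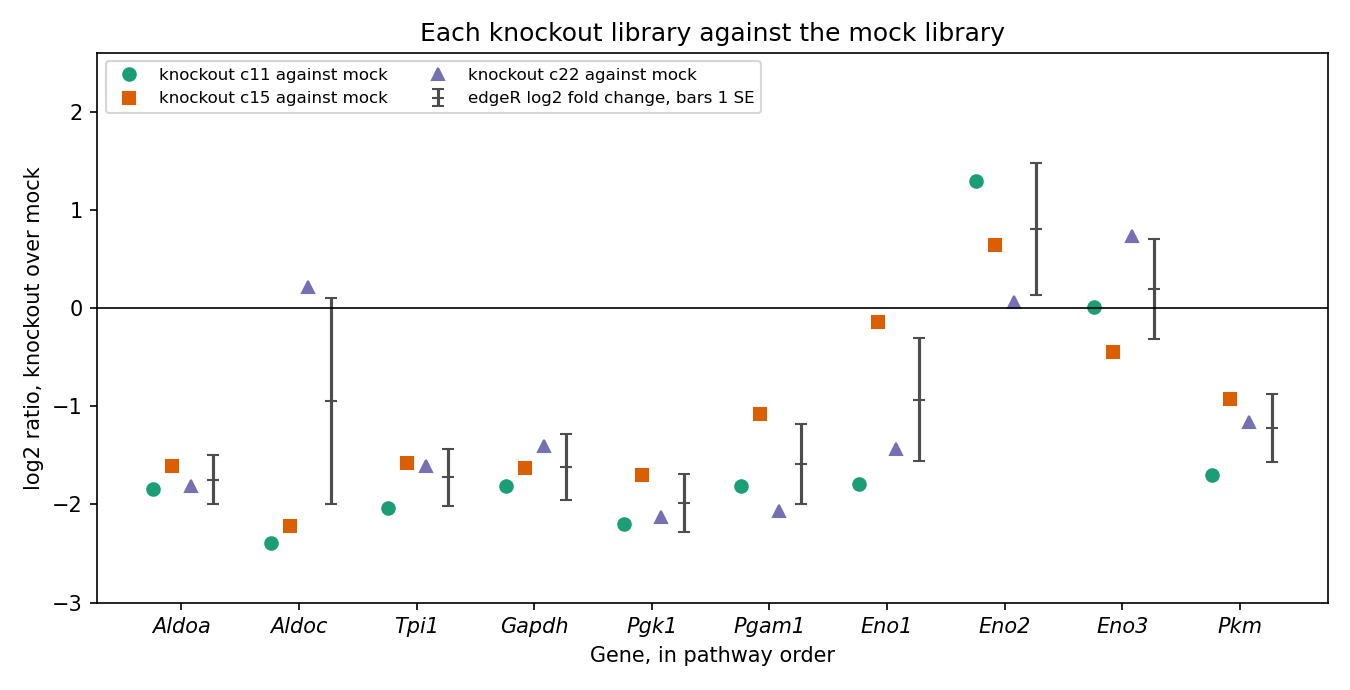
Log2 ratio of each knockout library to mock (CPM with 0.5 added; circles c11, squares c15, triangles c22) and edgeR's log2 fold change with bars of 1 SE, genes in pathway order. Aldoa, Tpi1, Gapdh and Pgk1 have their 3 libraries close together below 0, and Eno1 and Aldoc each have 1 library near 0. Eno2 lies above 0, by little in c22. Eno3 lies below 0 in c15 (-0.44), near 0 in c11 and above 0 in c22.

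Among the knockout libraries, c11 was lowest for 7 of the 10 members and c15 highest for 6. The members' median log2 ratio to mock was -1.81, -1.33 and -1.42 in the order c11, c15, c22. The spread differed by gene: the highest knockout library was 1.18 times the lowest for Aldoa and 1.37 times for Tpi1, but 3.15 times for Eno1 and 6.55 times for Aldoc. Reads per Pgk1 read were above mock in every knockout library for Aldoa (1.22, 1.02 and 1.19 in c11, c15 and c22, against 0.956 in mock), Tpi1 (0.722, 0.700 and 0.926, against 0.647) and Pkm (2.51, 3.04 and 3.48, against 1.78). The same held for Gapdh, Pgam1, Eno1, Eno2 and Eno3, and not for Aldoc. Pgk1 had the lowest fitted log2 fold change of the members, so these ratios restate that and are no separate evidence.

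Steps above and beside lower glycolysis were read from the same fit. Of 8 genes of upper glycolysis, 5 were lower at an edgeR p under 0.05 and 0 higher. Of the 15706 tested genes, 2.56% were lower at that p and 176 were higher. DESeq2 called 3, beside 0.42% of all genes called as lower, and the median log2 fold change of the 8 genes was -1.29. Pfkl, the liver-type phosphofructokinase, averaged 71.9 ± 17.4 CPM in knockout tumours (SD, n = 3) and 411 CPM in mock, and the phosphoglucose isomerase gene Gpi1 483 ± 88.4 CPM and 1746 CPM. Pfkm, the muscle-type phosphofructokinase, was at 99.1 ± 23.1 CPM and 122 CPM, with overlapping groups. Of 4 genes of the lactate step, 1 was lower at that p (Ldha, 1042 ± 493 CPM in knockout tumours, SD, n = 3, and 3867 CPM in mock), and the median was -0.30. Of 9 genes that branch off lower glycolysis, 0 had an edgeR p under 0.05, with a median of 0.17. The serine synthesis gene Phgdh, which draws on phosphoglycerate, averaged 979 ± 135 CPM in knockout tumours (SD, n = 3) and 810 CPM in mock, and Psph 194 ± 9.21 CPM and 127 CPM. Of 3 tested genes of gluconeogenesis 0 had such a p. Pck2, the mitochondrial enzyme that makes phosphoenolpyruvate, averaged 295 ± 139 CPM in knockout tumours (SD, n = 3) and 138 CPM in mock, and Pcx, pyruvate carboxylase, had 36.5, 11.1 and 64.1 CPM in c11, c15 and c22, against 10.3 CPM in mock. Each of the 3 knockout libraries was above mock for both, and the share of all tested genes in that position is not reported here. The third, G6pc3, a phosphatase of glucose-6-phosphate, had 30.9, 52.8 and 33.6 CPM in c11, c15 and c22, against 48.9 CPM in mock, with overlapping groups. No gene of these lists passed an adjusted p of 0.05 in edgeR.

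The genes most like the members were found from the 3 log2 ratios to mock. The profile was the median of the 7 members with a mean of at least 100 CPM, at -1.81, -1.08 and -1.61 in c11, c15 and c22, and 2323 other genes of that level were ranked by Euclidean distance to it. The 5 nearest were Gm5559 (distance 0.476), the hexokinase gene Hk2 (0.527), the glucose transporter gene Slc2a1 (0.543), Gm7336 (0.548) and Fam57b (0.566). Gm5559 and Gm7336 are copies of Gapdh and Fam57b overlaps Aldoa, so 3 of the 5 may share reads with a member. Slc2a1 averaged 95.9 ± 13.2 CPM in knockout tumours (SD, n = 3) and 252 CPM in mock. This is a description over 4 libraries.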

How the data were processed

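Per the labels' protocols, poly(A) RNA was sequenced with a directional library kit. The authors deposited raw counts per Ensembl gene, with 1 column for each library. The submitters' processing notes name the build GRCm38, featureCounts 1.6.3, SAMtools 1.9, HISAT2 2.1.0, Trimmomatic 0.38 and FastQC 0.11.7; its strand and multi-mapping settings are not given in the sources used here. CPM divide counts by the library total, and RPKM divide CPM by merged exon length in GENCODE M21, in which 55227 of 55487 gene IDs were found, 54784 with identical coordinates. Pairs of libraries differed beyond sampling noise (chi-square per gene 44.3 to 82.8), so none was taken as a copy of another. The smallest value was that of mock and c15 and the largest that of c15 and c22. In this measure the knockout libraries did not stand apart from mock as a group. Columns c11, c15 and c22 were used as 3 libraries of 1 group. The labels do not tie tumours to animals, so the p-values reflect only how much these libraries vary.

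The edgeR filter filterByExpr kept 15706 genes with 99.9% of counts. They were scaled by TMM and tested on both sides with the robust quasi-likelihood test of edgeR 4.0.16 in R 4.3.3. P-values were adjusted by Benjamini-Hochberg over all tested genes, at a threshold of 0.05. The biological coefficient of variation was 0.442, residual degrees of freedom were 2 and prior degrees of freedom 3.77. DESeq2 1.42.0, limma-voom (limma 3.58.1), other scalings and filters, the addition of processed copies and the omission of each knockout library were alternatives. Every member is named, and genes of the lists of related enzymes with a mean of at least 1 CPM could be named with values. Pklr, Eno4, Aldoart1, Aldoart2, Pgk2 and markers at 0 are named outside that level, to account for their lists; the values of some list members are not reported here. Overlapping genes, copies and neighbours were chosen with their values in view. The members and lists were chosen with earlier results of these data known.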

Additional observations from a re-analysis of the deposited data

How the results depend on the processing

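Of 15706 genes, edgeR called 1 as different; without a filter on low counts it called 4, DESeq2 called 114 (48 higher, 66 lower), and limma-voom called 0 (138 higher and 428 lower at an unadjusted p under 0.05). With edgeR's older dispersion estimate, an alternative chosen after seeing the data, 0 were called (206 higher and 303 lower at an unadjusted p under 0.05). With any 1 knockout library left out the count was 0. The count of members lower at an unadjusted p under 0.05 was 6 under every alternative except without c15 and without c22, where it was 7, with Eno1 added in the first case and Aldoc in the second. The members' median log2 fold change ran from -1.60 without c15 to -1.25 without c11. Under the 11 alternatives no member passed an adjusted p of 0.05 other than Aldoa, Tpi1, Gapdh and Pgk1 with DESeq2, and no member changed sign other than Eno3, which without 1 library ran from -0.21 (without c22) to 0.43 (without c15). As shares of reads, Eno1 averaged 86.2% and Eno3 12.9% of enolase over the knockout libraries, and per length 69.2% and 30.0%. No paired analysis was possible because mock has 1 library. Depth limits Eno2, Aldoc and the second Aldoa row most; the single mock library limits every comparison.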
